A study of Mus musculus with 10 samples.

Results

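Solute carriers are the membrane proteins that move sugars, amino acids, ions, metals, vitamins and metabolites across the plasma membrane and the membranes of organelles. In the kidney, carriers of the brush border take filtered solutes into the tubule cell, carriers of the basolateral membrane pass them on to the blood, and mitochondrial carriers feed the oxidation on which tubular transport depends. Sodium-coupled carriers draw on the gradient set up by the sodium pump, while facilitative carriers, such as those of the glucose transporter family, need no gradient of another solute. The genes described here are the solute carriers of the kidney other than the organic anion and cation carriers of family Slc22, the family Slc17, and the genes Slc34a1, Slc20a1, Slc9a3r1, Slc9a3r2, Slc37a4, Slc12a1, Slc12a3, Slc4a1 and Slc8a1. They were chosen by gene symbol, with earlier results of these data known. Of 150 probe sets that name 1 such gene, for 120 genes, 99 probe sets for 89 genes read over a log2 value of 4 on at least 5 of 10 arrays and were tested, out of 5295 genes tested in all. The remaining 31 genes were not tested, and 81 of the 89 were over that floor on all 10 arrays.

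Whole kidney RNA came from mice of the C57Bl strain at 8 weeks of age, with 1 Affymetrix array per animal. The 5 transgenic animals (TG) were numbered 614, 619, 652, 657 and 661, and their 5 wild-type littermates (WT) 612, 618, 650, 658 and 663. The transgene is human wild-type FGF23 driven by a type I collagen promoter, known for its activity in bone and connective tissue. Group membership was read from the sample titles, since the genotype field reads transgenic for every sample. Xist put 2 females and 3 males in each group, the females being TG 614, TG 652, WT 612 and WT 650. All levels are log2 values as deposited, and all differences are TG minus WT on the log2 scale with the standard error from limma. Levels of different probe sets were not compared with each other, since probe sets differ in how strongly they bind.

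The comparison asked which carriers differ in the kidney between mice with the FGF23 transgene and their littermates. In TG kidneys 3 carriers fell and 2 rose: the creatine transporter Slc6a8, the GABA and taurine transporter Slc6a13 and the potassium-chloride cotransporter Slc12a7 were lower, and the fatty acid transporter Slc27a1 and the zinc and manganese transporter Slc39a8 were higher. The falls were 1.37-fold (Slc6a8) to 1.57-fold (Slc6a13), and the rises 1.71-fold (Slc39a8) and 2.22-fold (Slc27a1). These 5 of 89 genes were 5.62% of the members, where 1.3% of all genes tested passed (limma, Benjamini-Hochberg adjusted p under 0.05 over all probe sets tested). By direction, 0.869% of all genes tested passed as higher and 0.434% as lower. None of the 5 calls held in every fit with 1 animal left out, as given beside each gene below. With sex as a term, 4 members rose and 4 fell, where 4.42% of all genes passed (2.68% higher and 1.74% lower). The additional calls were Slc2a1 and Slc29a1, both higher, and Slc25a15, lower. With sex and number range (612 to 619 against 650 to 663) as terms 7 members passed as higher and 12 as lower, where 8.48% of all genes passed. With chip lot as a term 2 rose (Slc27a1 and Slc29a1) and 2 fell (Slc6a13 and Slc19a1), so that the calls of Slc6a8, Slc12a7 and Slc39a8 were lost. The lot term leaves TG 661, alone on its lot, without weight in the comparison. With processing day as a term 0 members passed in either direction, and 26 of all genes did. That term leaves TG 661 and WT 663, each alone on its day, without weight in the comparison.

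Most members lay slightly lower in TG kidneys: 57 of 89 differences were negative (64.0%, against 53.3% of all genes tested), with a median of -0.07 against -0.01 over all genes tested. The median size of a difference regardless of sign was 0.18 for members and 0.12 for all genes tested. The TG and WT values did not overlap for 7 members (7.87%), where 4.48% of all genes had no overlap (2.46% higher and 2.02% lower in TG). These were the 5 genes that passed and Slc25a25 (lower) and Slc29a1 (higher). At an unadjusted p under 0.05 there were 19 members (21.3%, against 13.2% of all genes). In whole tissue, fewer cells of a type and less RNA per cell cannot be told apart.

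**Figure D1:**
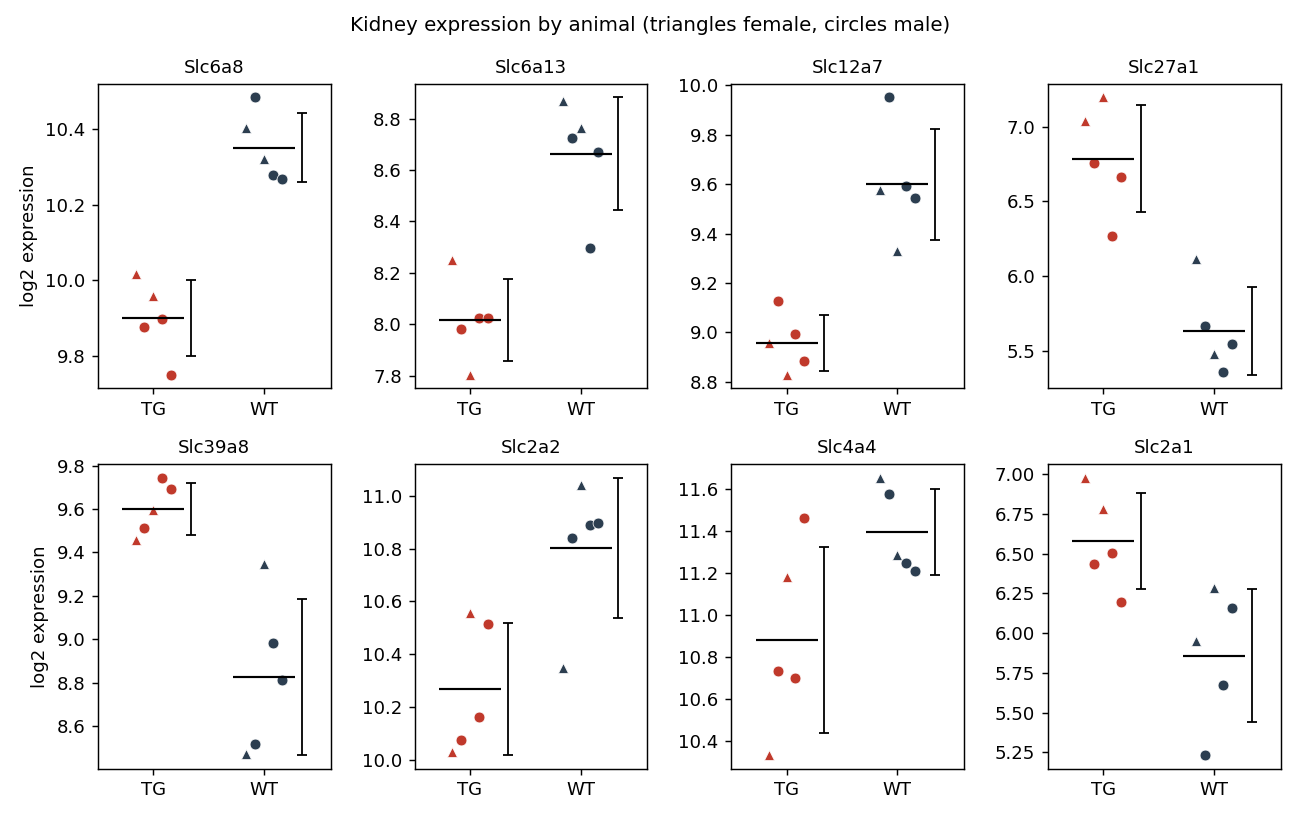
Log2 expression (vertical axis, its range set for each gene) of 8 solute carriers in TG and WT kidneys. Each point is 1 animal, triangles female and circles male, the horizontal line is the group mean and the bar beside it the SD (n = 5 per group). The groups do not overlap for Slc6a8, Slc6a13, Slc12a7, Slc27a1 and Slc39a8, and they overlap for Slc2a2, Slc4a4 and Slc2a1.

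Other transcripts moved with genotype in the same kidneys. Of 9 tested leukocyte markers all 9 had a positive difference and 2 passed, with a median of 1.24 and a summed level of 10.80 to 12.14 in TG and 10.14 to 10.60 in WT kidneys. Among the defining leukocyte markers, Cd68, Itgam, Cd3e and Cd79a were under the floor and not tested. All 6 tested markers of tubular injury had a positive difference and 4 passed, with a summed level of 11.44 to 12.32 in TG and 10.29 to 10.83 in WT kidneys. The 9 tested markers of the proximal tubule had 0 genes past the test and 7 negative differences, with a median of -0.21. Their summed level was 15.71 to 15.97 in TG and 15.97 to 16.12 in WT kidneys. Differences ran from -0.53 (Acsm2) to 0.09 (Keg1), and Acsm2 passed as lower with sex as a term (adjusted p = 0.0473). The megalin gene Lrp2, at a difference of 0.01, had TG values of 12.10 to 13.01 against WT values of 12.25 to 12.93. Of 4 tested collecting duct markers 1 passed, Kit at 1.30 ± 0.26 (adjusted p = 0.0440) with no overlap, and 3 had a positive difference, with a summed level of 10.98 to 11.47 in TG and 10.76 to 11.74 in WT kidneys. Of 5 loop and distal tubule markers 0 passed and 3 had a positive difference. Their summed level was 14.11 to 14.81 in TG and 13.42 to 14.77 in WT kidneys. Kcnj1 (0.78 ± 0.21) passed as higher with sex as a term (adjusted p = 0.0119). Pvalb (-0.91 ± 0.40) and Calb1 (-0.58 ± 0.25) were negative and did not pass with that term (adjusted p = 0.0690 and 0.225). The part of these lists in the carriers' differences was not tested. The actin 3' minus 5' probe set difference, a sign of RNA quality, was 1.82 to 2.58 in TG and 1.95 to 3.35 in WT, highest in WT 612, and its part was not tested either.

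The windows upstream of 6 carriers are printed to show the sequence ahead of genes of either direction: Slc27a1 and Slc39a8, which rose, Slc6a13 and Slc12a7, which fell, and the relatives Slc2a2 and Slc2a1, which did not pass and whose differences were negative and positive in turn. Each is the 250 bases before the annotated start in RefSeq (GRCm38.p6, plus strand, the most upstream of the starts listed). They lie at chr8:71568621-71568870 for Slc27a1, chr3:135825029-135825278 for Slc39a8, chr6:121300038-121300287 for Slc6a13, chr13:73763410-73763659 for Slc12a7, chr3:28697653-28697902 for Slc2a2 and chr4:119108495-119108744 for Slc2a1. Capitals mark matches, on either strand, to the GC box GGGCGG, the TATA box TATAAA, the hypoxia response core ACGTG and the HNF1 half-site GTTAAT. The genes and motifs were chosen after values and sequences had been seen.
Slc27a1: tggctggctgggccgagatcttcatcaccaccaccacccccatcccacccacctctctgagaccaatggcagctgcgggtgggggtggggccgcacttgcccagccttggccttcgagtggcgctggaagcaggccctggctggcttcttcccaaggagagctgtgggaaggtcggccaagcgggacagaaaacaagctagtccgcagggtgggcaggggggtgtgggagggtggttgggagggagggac
Slc39a8: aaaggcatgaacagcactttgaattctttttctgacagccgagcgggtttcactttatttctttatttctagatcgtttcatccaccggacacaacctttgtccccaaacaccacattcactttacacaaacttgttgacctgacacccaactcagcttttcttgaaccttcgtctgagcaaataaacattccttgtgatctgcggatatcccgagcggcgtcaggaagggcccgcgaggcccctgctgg
Slc6a13: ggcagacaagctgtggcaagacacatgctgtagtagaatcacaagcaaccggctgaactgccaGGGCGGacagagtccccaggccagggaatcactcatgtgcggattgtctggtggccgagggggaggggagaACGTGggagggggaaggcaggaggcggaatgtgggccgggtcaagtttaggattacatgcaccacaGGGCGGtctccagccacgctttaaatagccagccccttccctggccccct
Slc12a7: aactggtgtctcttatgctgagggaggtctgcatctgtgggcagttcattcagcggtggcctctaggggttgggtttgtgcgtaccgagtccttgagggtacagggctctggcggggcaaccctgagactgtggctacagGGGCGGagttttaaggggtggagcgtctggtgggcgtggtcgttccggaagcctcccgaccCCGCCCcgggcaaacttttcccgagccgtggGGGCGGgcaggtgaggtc
Slc2a2: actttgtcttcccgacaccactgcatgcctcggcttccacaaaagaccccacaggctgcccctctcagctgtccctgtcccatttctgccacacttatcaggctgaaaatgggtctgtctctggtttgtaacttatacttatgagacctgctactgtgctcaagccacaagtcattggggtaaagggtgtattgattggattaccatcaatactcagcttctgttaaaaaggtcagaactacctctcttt
Slc2a1: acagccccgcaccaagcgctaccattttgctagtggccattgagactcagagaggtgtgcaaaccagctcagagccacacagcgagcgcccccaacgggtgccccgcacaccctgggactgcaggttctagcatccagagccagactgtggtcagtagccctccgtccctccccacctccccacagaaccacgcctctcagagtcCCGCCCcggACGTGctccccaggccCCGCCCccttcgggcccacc
The windows of Slc27a1, Slc39a8 and Slc2a2 held none of the 4 motifs. The Slc6a13 window held 2 GC boxes and 1 hypoxia core, that of Slc12a7 held 3 GC boxes, and that of Slc2a1 held 2 GC boxes and 1 hypoxia core. Listed starts numbered 3 for Slc27a1 and Slc6a13, 2 for Slc39a8 and Slc12a7, and 1 for Slc2a2 and Slc2a1. These motif counts cover only the window printed for each gene. GC content was 66.4% for Slc27a1, 47.6% for Slc39a8, 60.8% for Slc6a13, 63.6% for Slc12a7, 47.2% for Slc2a2 and 66.4% for Slc2a1. Over the 109 windows of the 73 members with an entry, 59.6% held a GC box, 24.8% a hypoxia core, 4.59% a TATA box and 4.59% an HNF1 half-site. Over all 32851 windows the shares were 32.7%, 16.6%, 12.4% and 6.43%, in the same order, and the median GC content was 60.4% for members and 52.4% for all. Members had to pass the expression floor in kidney, while the windows of all 27025 genes were not filtered by expression. The part of that filter in these gaps was not tested. A match is a description of letters, and the arrays do not measure which start is used.

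Among carriers of amino acids, peptides and organic osmolytes, 2 of 18 tested genes fell, 0 rose and 16 did not pass, with a median of -0.14 and 12 negative differences. Slc6a8 carries creatine into cells with sodium and chloride. It (probe set 95625_at) read 10.02, 9.88, 9.96, 9.90 and 9.75 in TG 614, 619, 652, 657 and 661, against 10.40, 10.48, 10.32, 10.28 and 10.27 in WT 612, 618, 650, 658 and 663. Every TG kidney was below every WT kidney, with an SD of about 0.1 within each group. The difference was -0.45 ± 0.08 (adjusted p = 0.0358), 1.37-fold lower in TG. Of the 10 fits with 1 animal left out only that without WT 650 called it, with adjusted p from 0.0467 to 0.107 over the 10 fits. Within chip lots, fluidics stations and the first processing day the difference ran from -0.50 to -0.34, and the call was lost with chip lot as a term (adjusted p = 0.0593) and with fluidics station as a term (adjusted p = 0.0507).

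Slc6a13 takes up GABA, beta-alanine and taurine and is known from the proximal tubule and liver. Its levels (103934_at) were 8.25, 7.98, 7.80, 8.03 and 8.02 in the TG animals, in the order above, against 8.87, 8.72, 8.76, 8.30 and 8.67 in the WT animals. The groups did not overlap, and the highest TG kidney (TG 614) lay just below the lowest WT kidney (WT 658). It fell by 0.65 ± 0.12 (adjusted p = 0.0370), or 1.57-fold. The call held without TG 614 and without WT 658, and was lost without any of the other 8 animals, with adjusted p up to 0.111. Within-batch differences lay between -0.67 and -0.57. Slc3a1, the heavy subunit of the cystine and dibasic amino acid transporter of the brush border, read 9.28 to 9.79 in TG and 9.64 to 9.94 in WT kidneys, with a difference of -0.26 ± 0.11 (adjusted p = 0.375). The other 15 amino acid carriers ran from -0.63 (Slc6a15) to 0.57 (Slc1a5), with adjusted p of at least 0.382.

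For inorganic ions, bicarbonate and protons, 1 of 7 tested carriers fell, 0 rose and 6 did not pass, and 6 of 7 differences were negative, with a median of -0.51. Slc12a7 moves potassium and chloride out of the cell together, on the basolateral side of tubule cells. Its values (104719_at) were 8.96, 9.13, 8.83, 8.99 and 8.88 in TG 614, 619, 652, 657 and 661, against 9.58, 9.95, 9.33, 9.59 and 9.54 in WT 612, 618, 650, 658 and 663. Every TG kidney was below every WT kidney, with WT 618 the highest of all. The fall was 0.64 ± 0.12 (adjusted p = 0.0343), or 1.56-fold. Leaving out WT 618 or WT 650 kept the call, and leaving out any of the other 8 animals lost it, with adjusted p up to 0.0946. Within-batch differences lay between -0.70 and -0.55, and the call was lost with chip lot as a term (adjusted p = 0.0680).

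Slc4a4, the sodium bicarbonate cotransporter that returns bicarbonate to the blood from the proximal tubule, did not pass. It (98457_at) read 10.34, 10.74, 11.18, 10.70 and 11.46 in the TG animals and 11.65, 11.58, 11.29, 11.25 and 11.21 in the WT animals. TG 661 stood within the WT values and TG 614 furthest below them, so the groups overlapped. The difference was -0.51 ± 0.20 (adjusted p = 0.312), at -1.08 in animals 612 to 619 and -0.14 in animals 650 to 663. That gap between number ranges had adjusted p = 0.913 in limma's interaction test, the lowest of any member. Slc12a2, the sodium-potassium-chloride cotransporter of basolateral membranes, differed by -0.33 ± 0.14 (adjusted p = 0.375), with TG values of 9.23 to 9.74 against WT values of 9.39 to 10.06. Slc9a8, a sodium-proton exchanger of the brush border, differed by -0.87 ± 0.42 (adjusted p = 0.417), with TG 652 at 7.60, the other TG animals at 9.32 to 9.95 and the WT animals at 9.51 to 10.86. Without TG 652 that difference was -0.48 (adjusted p = 0.636).

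Carriers of sugars and inositol held 0 of 8 genes past the test, with 6 positive differences, a median of 0.11 and 4 members at an unadjusted p under 0.05. Slc2a2 and Slc2a1 are facilitative glucose transporters. Slc2a2 passes reabsorbed glucose out of the proximal tubule cell, and Slc2a1 is widely expressed. The levels of Slc2a2 (103357_at) were 10.03, 10.08, 10.56, 10.16 and 10.51 in TG 614, 619, 652, 657 and 661, against 10.35, 10.84, 11.04, 10.89 and 10.90 in WT 612, 618, 650, 658 and 663. WT 612 stood below TG 652 and TG 661, and the other 4 WT kidneys were above all TG kidneys. The difference was -0.54 ± 0.15 (adjusted p = 0.158), and adjusted p was 0.0939 with sex as a term. It passed with array weights (adjusted p = 0.0397) and with sex and number range as terms (adjusted p = 0.0225).

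Slc2a1 (93738_at) read 6.98, 6.44, 6.78, 6.51 and 6.20 in the TG animals, against 5.95, 5.23, 6.28, 5.67 and 6.16 in the WT animals. Only TG 661 lay among the WT values, below WT 650. The difference was 0.72 ± 0.21 (adjusted p = 0.163). With sex as a term it passed at adjusted p = 0.0368, and over the 10 fits with 1 animal left out, without that term, adjusted p ran from 0.108 to 0.354. Of 10 tested hypoxia genes, a list that leaves out Slc2a1, 0 passed, 6 had a positive difference and the median was 0.09. The part of hypoxia in the difference of Slc2a1 was not tested. Slc2a4, the insulin-responsive glucose transporter of muscle and fat, differed by 0.36 ± 0.15 (adjusted p = 0.375), with TG values of 6.66 to 7.25 against WT values of 6.10 to 6.77. The other 5 carriers of this class ran from -0.20 (Slc5a11) to 0.37 (Slc5a1, a sodium-glucose cotransporter), with adjusted p of at least 0.380.

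**Figure D2:**
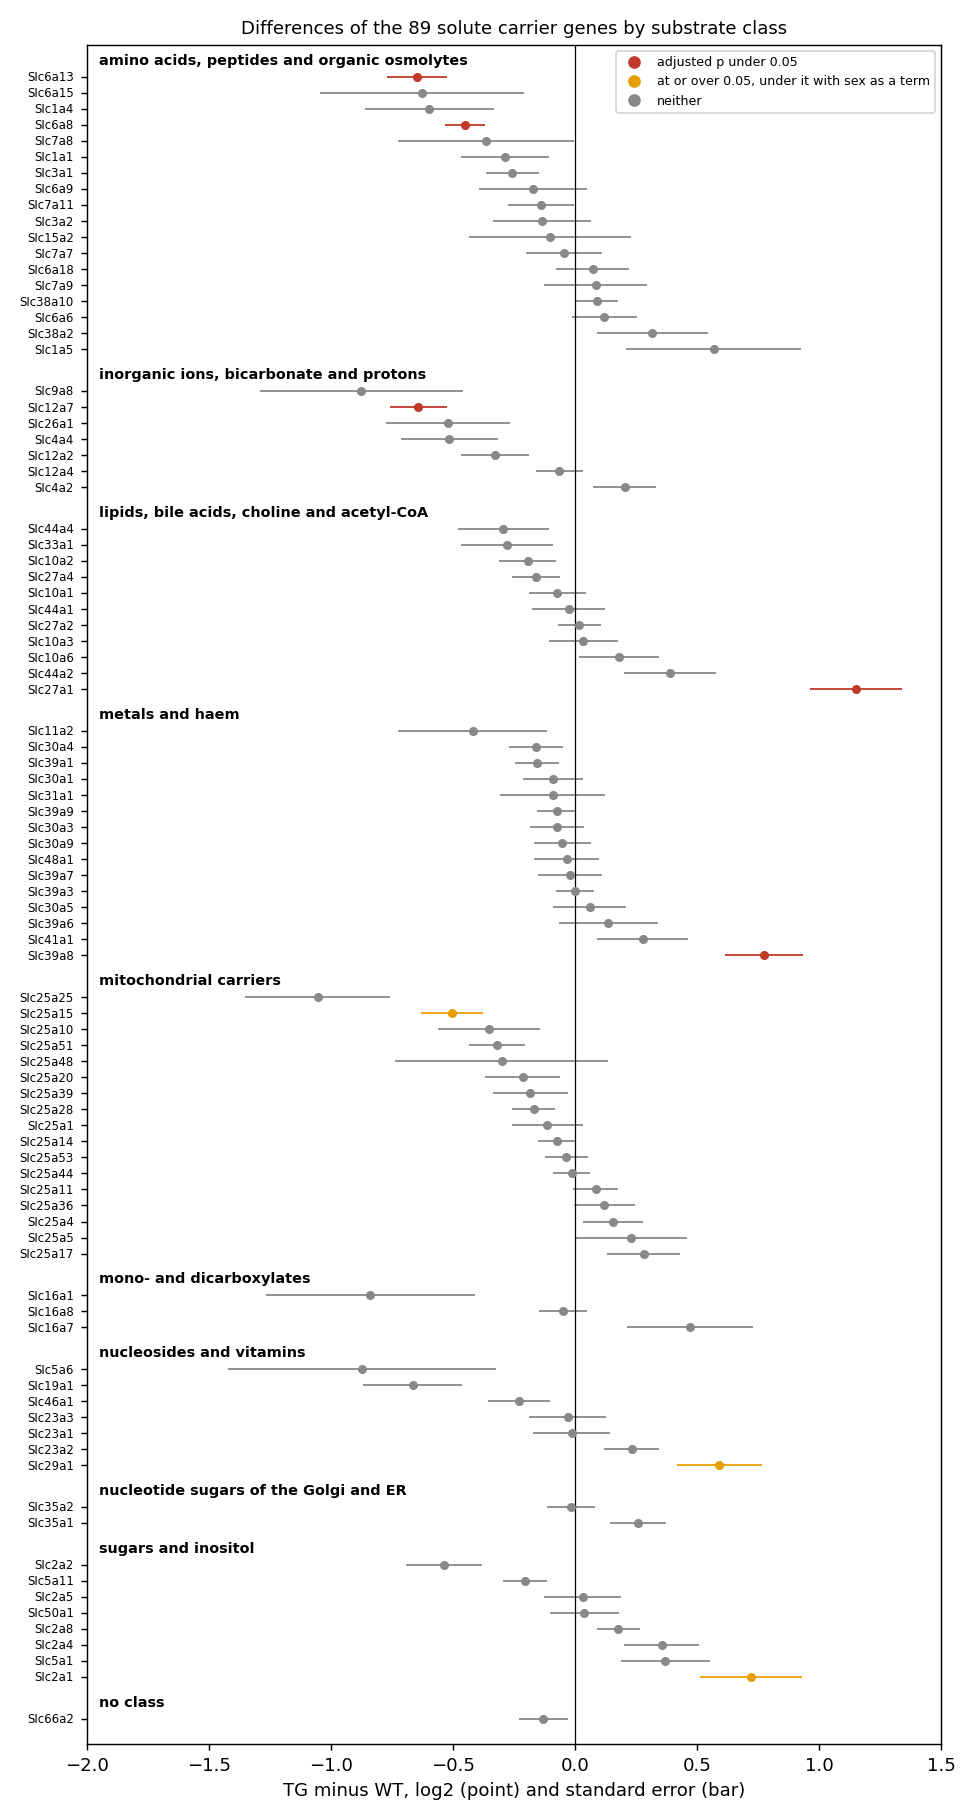
TG minus WT difference (log2, horizontal axis) of the 89 solute carrier genes, 1 row per gene, grouped by substrate class, with the standard error as a bar. Red marks the 5 genes with adjusted p under 0.05, orange the 3 that did not pass there but passed with sex as a term (Slc2a1, Slc25a15 and Slc29a1), and grey the rest. In the class of inorganic ions 6 of 7 points lie left of 0, and in that of sugars 6 of 8 lie right of it.

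Lipid, bile acid, choline and acetyl-CoA carriers held 1 gene that rose of 11 tested, 0 that fell and 10 that did not pass, with a median of -0.03. Slc27a1 takes up long-chain fatty acids and activates them to their CoA esters, and is best known from muscle and fat. Its values (93486_at) were 7.03, 6.76, 7.19, 6.27 and 6.66 in TG 614, 619, 652, 657 and 661, against 6.12, 5.67, 5.48, 5.35 and 5.55 in WT 612, 618, 650, 658 and 663. The lowest TG kidney (TG 657) was above the highest WT kidney (WT 612). Slc27a1 rose by 1.15 ± 0.19 (adjusted p = 0.0189), 2.22-fold, at 1.32 in females and 1.04 in males. Leaving out TG 652, TG 657, TG 661, WT 612 or WT 650 kept the call, and leaving out TG 614, TG 619, WT 618, WT 658 or WT 663 lost it, with adjusted p up to 0.0622. Within-batch differences ran from 1.04 to 1.32.

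Slc27a1 is also known from fat, and 0 of 2 tested adipose markers passed, with Adipoq and Pparg under the floor. Their summed level was 5.17 to 5.43 in TG and 5.27 to 5.58 in WT kidneys. Both read near the floor, Fabp4 at most at 4.51 and Lep at most at 4.87. The part of fat tissue in the rise of Slc27a1 was not tested. The other fatty acid carriers of the family did not pass, at 0.02 for Slc27a2 and -0.16 for Slc27a4. The choline transporter-like gene Slc44a2 differed by 0.39 ± 0.19 (adjusted p = 0.420), with TG values of 5.76 to 6.84 against WT values of 5.67 to 6.14. The bile acid transporter Slc10a2, near the floor and over it on 9 of 10 arrays, differed by -0.19 ± 0.12 (adjusted p = 0.532). The other 8 members of the class lay between -0.29 (Slc44a4) and 0.18 (Slc10a6).

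Of 15 carriers of metals and haem 1 rose, 0 fell and 14 did not pass, with a median of -0.05. Slc39a8 brings zinc, manganese and also cadmium into the cell. It (97442_at) read 9.46, 9.51, 9.60, 9.74 and 9.69 in the TG animals, against 8.47, 8.52, 9.35, 8.98 and 8.81 in the WT animals. The TG kidneys lay close together, the WT kidneys were spread with WT 650 the highest, and the groups did not overlap. Slc39a8 rose by 0.78 ± 0.16 (adjusted p = 0.0478), 1.71-fold. Without WT 650 the adjusted p was 0.0125, and without any of the other 9 animals the call was lost, with adjusted p up to 0.126. It was also lost with no filter on low values, with median centring and with chip lot as a term (adjusted p = 0.0873). Within-batch differences ran from 0.51 to 0.95.

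The other 5 tested genes of the family Slc39 did not pass, with differences from -0.16 (Slc39a1, a zinc importer of the plasma membrane, adjusted p = 0.524) to 0.14 (Slc39a6). The 5 genes of family Slc30, known for zinc export, did not pass either, at -0.16 (Slc30a4) to 0.06 (Slc30a5). The magnesium transporter Slc41a1 differed by 0.28 ± 0.18 (adjusted p = 0.583), with TG values of 5.79 to 6.80 against WT values of 5.85 to 6.27. The iron transporter Slc11a2 differed by -0.42 (adjusted p = 0.616) on 1 probe set and by -0.06 on its other. For the copper importer Slc31a1 the representative probe set differed by -0.09 (adjusted p = 0.897). Its second probe set differed by -0.27 (adjusted p = 0.310) with no overlap between groups.

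The mitochondrial carrier family Slc25 was one of the larger classes, with 17 tested, 0 past the test, 12 negative differences and a median of -0.11. Slc25a15 exchanges ornithine and citrulline across the inner membrane. Its levels (104007_at) were 9.70, 9.74, 9.69, 10.25 and 9.999 in TG 614, 619, 652, 657 and 661, against 10.18, 10.28, 10.42, 10.51 and 10.51 in WT 612, 618, 650, 658 and 663. TG 657 lay above WT 612, and the other 4 TG kidneys were below all WT kidneys. The difference was -0.50 ± 0.13 (adjusted p = 0.106), and with sex as a term it passed at 0.0352. It also passed with number range as a term (0.0442) and, with no covariate, without TG 657 (0.0498).

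Slc25a25, the calcium-regulated carrier of ATP-magnesium and phosphate, did not pass although its groups did not overlap. Its values (98569_at) were 8.65, 8.49, 8.79, 8.29 and 8.73 in the TG animals, against 9.38, 9.16, 10.70, 10.06 and 8.92 in the WT animals. WT 650 and WT 658 were the highest, and WT 663 lay just above TG 652. The difference was -1.05 ± 0.30 (adjusted p = 0.150), and it passed with sex and number range as terms (adjusted p = 0.0328). Slc25a51, which brings NAD into mitochondria, differed by -0.32 ± 0.11 (adjusted p = 0.272), and its other probe set by -0.27. The other 14 ran from -0.35 (the dicarboxylate carrier Slc25a10) to 0.28 (Slc25a17, a member of the family found in peroxisomes), with adjusted p of at least 0.461.

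Among 7 carriers of nucleosides and vitamins 0 passed, with 5 negative differences and a median of -0.03. Slc29a1, the equilibrative nucleoside transporter that takes up adenosine, read (95733_at) 7.14, 6.60, 6.73, 6.25 and 6.22 in TG 614, 619, 652, 657 and 661, against 6.15, 6.06, 6.16, 5.85 and 5.76 in WT 612, 618, 650, 658 and 663. Every TG kidney was above every WT kidney, by a narrow margin at TG 661 and WT 650. The difference was 0.59 ± 0.17 (adjusted p = 0.171), and it passed with sex as a term (0.0258) and with chip lot as a term (0.0495). Of the 10 fits with 1 animal left out, 0 called Slc29a1, with adjusted p from 0.126 to 0.334. The reduced folate carrier Slc19a1 differed by -0.66 ± 0.20 (adjusted p = 0.196), with TG values of 7.90 to 8.87 against WT values of 8.79 to 9.45. It passed with number range as a term (adjusted p = 0.0247) and with chip lot as a term (adjusted p = 0.0422). The ascorbate transporter Slc23a2 differed by 0.23 ± 0.11 (adjusted p = 0.427). The sodium-dependent multivitamin transporter Slc5a6, which carries biotin and pantothenate, differed by -0.87 ± 0.55 (adjusted p = 0.557) and was spread widely, with TG values of 4.77 to 7.08 against WT values of 5.15 to 7.56.

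The 3 tested carriers of mono- and dicarboxylates did not pass. Slc16a1, the widely expressed lactate and pyruvate transporter, differed by -0.84 ± 0.43 (adjusted p = 0.452) and was over the floor on 7 of 10 arrays. Its relative Slc16a7 differed by 0.47 ± 0.26 (adjusted p = 0.487), with TG values of 8.64 to 9.67 against WT values of 7.95 to 9.40, and Slc16a8, near the floor, by -0.05 ± 0.10 (adjusted p = 0.877). These transporters need a partner to reach the plasma membrane, basigin for some and embigin for others. Embigin (Emb, 101560_at), 1 of 7 tested genes of a list of partners and regulators of the carriers, rose by 1.38 ± 0.18 (adjusted p = 0.00614). It read 7.90, 7.56, 8.18, 7.75 and 7.66 in the TG animals, against 6.44, 6.18, 7.07, 6.22 and 6.27 in the WT animals, with no overlap. The other 6 partners did not pass, among them basigin (Bsg) at 0.21 ± 0.09 (adjusted p = 0.361) and Hnf4a, a transcription factor of proximal tubule and liver, at 0.15 ± 0.64 (adjusted p = 0.945). The median of the 7 was 0.11.

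Neither of the 2 tested nucleotide sugar carriers passed. Slc35a1, which takes CMP-sialic acid into the Golgi, differed by 0.26 ± 0.11 (adjusted p = 0.386), and Slc35a2, which takes UDP-galactose, by -0.02 ± 0.10 (adjusted p = 0.966). Slc66a2, given no substrate class, differed by -0.13 ± 0.10 (adjusted p = 0.647). Over all classes, the 60 members outside the rule for named genes ran from -0.63 to 0.57 with adjusted p of at least 0.380.

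How far the calls depended on the model is shown by the plot of adjusted p under each setting. For Slc27a1 adjusted p ran from 0.00128 to 0.376 over the 18 other settings and passed in 14, for Slc6a13 it passed in 13, for Slc12a7 in 12, and for Slc6a8 and Slc39a8 in 11 each. Among members not called, Slc25a15 and Slc29a1 passed in 3 of the 18, Slc2a1 and Slc2a2 in 2 and Slc25a25 in 1. In the 10 fits with 1 animal left out, Slc25a15 passed in 1, and Slc2a1, Slc2a2, Slc25a25 and Slc29a1 in 0. The settings that lost all 5 calls were processing day as a term and the smaller subsets of females alone, animals 612 to 619 alone and animals 650 to 663 alone. The sign of each of the 5 differences was the same in all 28 fits. Slc6a8 ran from -0.50 to -0.37 and Slc27a1 from 0.94 to 1.32 over those settings.

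**Figure D3:**
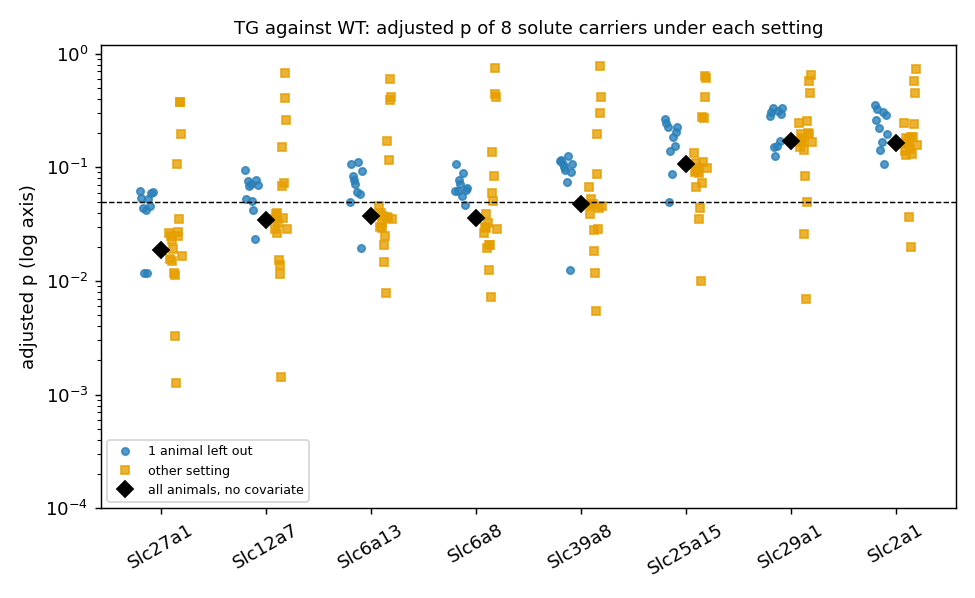
Adjusted p (log axis) of 8 solute carriers for TG against WT. The black diamond is the fit of all animals without a covariate, blue circles are the 10 fits with 1 animal left out, orange squares the 18 other settings, and the dashed line is 0.05. For Slc27a1, 5 of 10 circles lie below the line, and for Slc6a8 and Slc39a8, 1 of 10.

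The effect of the transgene was also compared between sexes and between number ranges, as a difference of differences. By limma's interaction test 0 of 89 members passed for sex (lowest adjusted p = 0.996, with 2 members at an unadjusted p under 0.05) and 0 for number range (lowest adjusted p = 0.913, with 5 at an unadjusted p under 0.05). With 2 females and 3 males per group these tests had few animals. Male and female values did not overlap for 5 members (5.62%), below the 8.46% of all genes tested. The cystine transporter subunit Slc7a9 was at 9.89 to 10.57 in the 6 males and 10.73 to 10.94 in the 4 females. The neutral amino acid transporter Slc6a18 and the adenine nucleotide carrier Slc25a4 were lower in males too, and the mitochondrial carrier Slc25a39 and the bile acid transporter Slc10a1 were higher in males. For these 5, TG minus WT lay between -0.18 and 0.16. Of them, Slc10a1 read only 4.52 to 5.09, near the floor of 4, and its other tested probe set was over the floor on 7 of 10 arrays. Slc5a6 differed most by sex in the model with sex (-1.56, male minus female), but the sexes overlapped, at 4.77 to 6.31 in males and 5.57 to 7.56 in females. These genes were picked after their values were seen, and no test of sex is given.

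**Figure D4:**
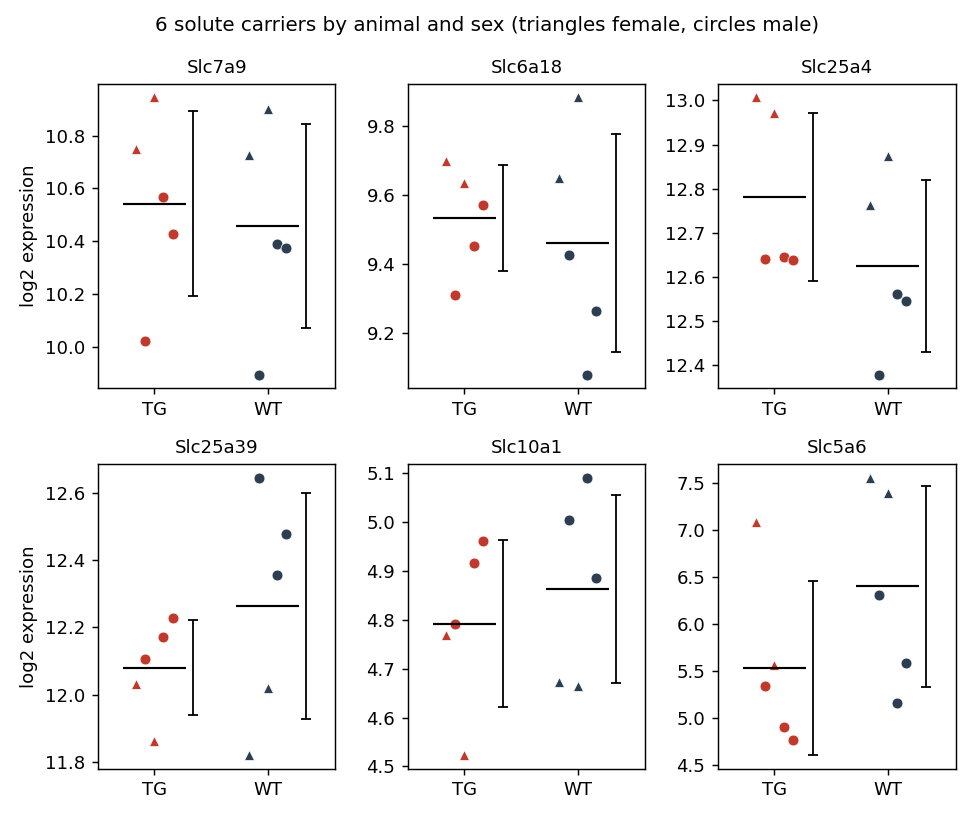
Log2 expression (vertical axis, its range set for each gene) of 6 solute carriers in TG and WT kidneys, triangles female and circles male, with the group mean as a line and the SD as a bar (n = 5 per group). Females lie above males for Slc7a9, Slc6a18 and Slc25a4 and below them for Slc25a39 and Slc10a1, while for Slc5a6 the sexes overlap.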

How the data were processed

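Kidney RNA of 5 TG and 5 WT mice was measured on MG_U74Av2 arrays, 1 per animal. Each probe set has 1 deposited log2 value per animal, from GCRMA per the submitters' processing notes. That the scale is log2 was read from the range of the values. Chip lot, fluidics station and processing day were read from each array's run record, per the file headers. The number of arrays limits the precision, and p-values set each difference against the spread between these animals.

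Of 12488 probe sets, 66 controls were left out, and 10833 name 1 gene, 396 several and 1193 none. Symbols came from the platform annotation (0 replaced, 16 unmatched). The 6814 probe sets over log2 4 on at least 5 arrays were fitted with limma 3.58.1 in R 4.3.3 (lmFit and eBayes, two-sided, no covariate), with Benjamini-Hochberg adjustment over all of them and a threshold of 0.05. Where several probe sets name a gene, the one with the highest overall mean stands for it. Sex was set as female where Xist was over log2 6. A summed level is log2 of the sum of a list's linear values. Exact permutation tests ran over all 252 assignments. The steps were tested on simulated data. Figures used Python 3.11.15 and matplotlib 3.10.9. Promoters came from RefSeq (GRCm38.p6), with no entry used for Slc6a8.

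Members, substrate classes and lists were chosen with earlier results of these data known. Genes named are Slc2a2, Slc4a4 and Slc2a1, and members past the threshold without a covariate or with sex as a term. Also named are members whose groups do not overlap, the 3 smallest p of each class and the 10 largest differences. Flags of 1 animal far from its group are given in full only for these genes, and 0 members passed an interaction test. Other members are given as the ends of ranges, as relatives or second probe sets of named genes, or for their sex pattern, all chosen after their values were seen. Alternatives covered filters, normalization, log scale, variance model, array weights, covariates, subsets, probe set averaging, a threshold of 0.01 and leaving out each animal.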

Additional observations from a re-analysis of the deposited data

Results flagged for a closer look

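The values here were flagged because 1 animal stood apart from the other 4 of its group by Dixon's test (critical value 0.71). Slc9a8 read 7.60 (7.5985) in TG 652, where the other TG kidneys read 9.32 to 9.95. Without TG 652 its difference was -0.48 (adjusted p = 0.636), against -0.87 with all animals. Slc16a8 read 3.89 (3.8858) in TG 652, under the floor of 4, where the other TG kidneys read 4.14 to 4.23. Slc2a2 read 10.35 (10.3487) in WT 612, where the other WT kidneys read 10.84 to 11.04. Without WT 612 the difference of Slc2a2 was -0.65, with adjusted p = 0.0555, against -0.54 with all animals. Over all members, 9 of 178 groups were flagged (5.06%), about the 1 in 20 that chance gives, and 6 of the 9 were in TG 652. Only the 3 flags in named genes are described here. Flagged members given above as range ends were Slc6a15 (TG 614), Slc10a6 (TG 652) and Slc5a1 (WT 618).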

How the results depend on the processing

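With all animals and no covariate 2 members were higher and 3 lower. The count higher was 1 with no filter and with median centring, 4 with sex as a term, and 7 with sex and number range as terms, where 12 were lower and 8.48% of all genes passed. The count lower was 5 with number range as a term and 0 in males alone. Both counts were 0 with processing day as a term, in females alone, in animals 612 to 619 alone, in animals 650 to 663 alone and at adjusted p under 0.01. Leaving out 1 animal gave 0 to 2 higher and 0 to 2 lower, and a member median between -0.0931 (without TG 661) and -0.0259 (without WT 658). In the fits without TG 619 and without WT 663 both counts were 0. The count of transport partners past the test was 0 in females alone and in each number range alone, against 1 with all animals. Among single genes with differences near 0, Slc16a8 turned to 0.0279 in animals 612 to 619, 0.0111 without TG 652 and 0.00563 without WT 658 (-0.0856 at the lowest, without WT 650), and Slc35a2 to 0.128 in females, 0.00123 in animals 612 to 619, 0.0201 without TG 619 and 0.0523 without WT 658 (-0.0535 at the lowest, without WT 650). The cause of these changes was not tested, and the subsets also hold fewer animals. For named members 712 of the values under an alternative kept direction and side of the threshold, 68 were no longer past it, 20 newly passed it and 7 changed sign. The exact permutation test, whose p is not adjusted, changed the side of 10 more. No paired analysis was possible because TG and WT animals share no number in the labels. Probe sets near the floor give only weak evidence on direction.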
